A study of Mus musculus with 24 samples.

Results

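The AP-1 and immediate early genes described here are 10 genes chosen by symbol: the Fos family (Fos, Fosb, Fosl1, Fosl2), the Jun family (Jun, Junb, Jund), the zinc-finger factor Egr1, the bZIP repressor Atf3 and the nuclear protein Ier2. All 10 were found in both deposited count tables, among 18440 genes of the inner ear table and 25190 of the organoid table. AP-1 is a family of transcription factors built from pairs of Fos and Jun proteins, and its genes belong to the immediate early genes, which cells switch on within minutes of a signal without making new protein first. Growth factors, stress and cytokines act on them through MAP kinases, serum response factor and CREB, and the transcripts are short-lived. Tumour necrosis factor (TNF) is an inflammatory cytokine, and RBM25 is an RNA-binding protein of the spliceosome. The genes were proposed as a group with opposite TNF responses with and without RBM25 knockdown, and that wording was not borne out: as given below, the fitted TNF effect had the same sign in both settings for all 9 members tested, although it was near 0 for Jund without the knockdown, and for 7 of them its size differed.

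RNA sequencing was done on 24 libraries in 2 experiments. The organoid experiment had 4 groups of 3 libraries each, namely RBM25 knockdown + TNF, RBM25 knockdown alone, TNF alone and controls. The organoids were grown in Matrigel from wild-type cochlear epithelium of newborn mice, expanded with EGF, bFGF, IGF and the GSK3 inhibitor CHIR99021, differentiated with CHIR99021 and the gamma-secretase inhibitor LY411575, and then kept in low EGF and bFGF, so every group had been exposed to growth factors that also act on immediate early genes. The knockdown was by lentivirus; the library titles call it KO. The labels state no dose or duration of TNF and no control vector. The inner ear experiment covered untreated male C57BL6/J mice of 3, 11 and 20 months, with 4 mice per age; the titles call the tissue cochlea and the other labels inner ear. Nothing says that organoid replicates came from separate cultures, so their p-values measure only the spread between these libraries, which may be technical.

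The libraries held 30599012 to 38451292 counts in the inner ear and 33802411 to 37048422 counts in the organoids. Levels are given as CPM, counts scaled to library size with TMM normalisation, and differences as log2 fold changes from edgeR's quasi-likelihood test with its standard error (SE); a gene was called when its Benjamini-Hochberg adjusted p over all genes tested was under 0.05. Rbm25 itself was lower with the knockdown, at 110.9 ± 10.0 against 162.1 ± 11.6 CPM in TNF-treated organoids and 94.6 ± 2.1 against 144.8 ± 2.9 CPM without TNF (SD, n = 3 each), so transcripts were reduced and not lost. Tnf had 60 to 82 counts per library in RBM25 knockdown + TNF organoids, 40 to 47 counts in TNF organoids, and 0 in every library without TNF. Supporting cell markers were abundant in the organoids, hair cell markers were lower, and of the macrophage markers 5 of 10 were in the organoid table, at a summed 1.00 to 11.6 CPM. In the inner ear the 8 hair cell markers summed to 354 to 543 CPM, and neuron and Schwann cell markers had the highest sums of the cell type lists. In bulk RNA fewer cells of a type and less RNA per cell cannot be told apart, and this touches every level below.

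Of the 10 genes, 7 matched a promoter window in RefSeq's table for GRCm38.p6, and 4 are shown because they stand for the patterns reported below: Fos and Fosb fell with TNF when RBM25 was intact, and Junb and Atf3 rose with TNF in both settings. Each window runs from 250 bases before the annotated start to 50 after it and is written in the gene's own direction: Fos is on the plus strand of chr12:85473640-85473939, Fosb on the minus strand of chr7:19309996-19310295, Junb on the minus strand of chr8:84978699-84978998 and Atf3 on the minus strand of chr1:191183284-191183583. Capitals mark the CRE half-site TGACG, bound by CREB and ATF proteins, on either strand, and the TATA box TATAAA on the gene's strand; the half-site, which also lies within the full CRE TGACGTCA, was chosen for display after the sequences were seen.
Fos: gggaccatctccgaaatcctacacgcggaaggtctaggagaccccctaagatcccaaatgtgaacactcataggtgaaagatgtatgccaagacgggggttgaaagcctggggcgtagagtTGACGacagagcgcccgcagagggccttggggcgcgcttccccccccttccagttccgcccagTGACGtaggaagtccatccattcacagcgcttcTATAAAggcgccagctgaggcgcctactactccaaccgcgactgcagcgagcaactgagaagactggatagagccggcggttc
Fosb: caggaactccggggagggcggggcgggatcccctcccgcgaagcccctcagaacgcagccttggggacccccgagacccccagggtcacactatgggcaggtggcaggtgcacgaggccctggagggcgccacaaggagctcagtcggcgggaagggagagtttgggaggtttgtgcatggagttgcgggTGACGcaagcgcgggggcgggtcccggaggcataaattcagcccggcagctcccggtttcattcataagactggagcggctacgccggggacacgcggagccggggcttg
Junb: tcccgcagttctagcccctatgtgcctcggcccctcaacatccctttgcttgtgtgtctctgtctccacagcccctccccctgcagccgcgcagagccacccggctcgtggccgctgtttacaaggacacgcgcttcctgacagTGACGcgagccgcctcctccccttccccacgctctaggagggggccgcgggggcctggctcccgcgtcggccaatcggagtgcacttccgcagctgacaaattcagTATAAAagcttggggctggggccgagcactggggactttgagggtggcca
Atf3: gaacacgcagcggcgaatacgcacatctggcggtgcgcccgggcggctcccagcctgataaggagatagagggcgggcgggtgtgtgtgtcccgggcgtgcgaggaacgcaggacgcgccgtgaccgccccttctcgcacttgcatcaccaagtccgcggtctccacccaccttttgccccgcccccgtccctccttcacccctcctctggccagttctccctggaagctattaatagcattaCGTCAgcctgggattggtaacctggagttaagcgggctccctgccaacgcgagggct
A CRE half-site was present in all 4 of these windows and in none of the other 3 members' windows (Fosl2, Jun and Jund). Of the 32851 promoter windows in the table, 20.8% held one. By exact letters, this split did not follow the patterns. Jun, without TGACG but with TGACATCA, a near match to the full CRE, fell with TNF when RBM25 was intact as Fos did. Fosl2, also without it, rose with TNF in both settings as Junb did. In Fos the half-site began 129 and 66 bases before the start, in Fosb 60 before, in Junb 106 before, and in Atf3 7 before on the opposite strand. The TATA box was found in Fos, 33 bases before the start, and in Junb at the annotated start itself. Counting both strands, 13.6% of all windows held one. Neither the AP-1 site TGANTCA nor the serum-response CArG box was in any of the 7 windows. Of all windows, 7.81% and 1.63% held them, and sites farther upstream lie outside these letters. An NF-kB motif was in Fos, Fosb and Fosl2 and not in Junb, Atf3, Jun or Jund, against 8.46% of all windows. The EGR site was in Fosb and Fosl2 (5.55% of all windows). The CCAAT box was in Junb, Atf3 and Jun (37.4%), and the GC box in Fos, Fosb, Atf3, Jun and Fosl2 (35.7%). A match is a description of the sequence and not a measured binding site.

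In organoids with intact RBM25, 5 of the 9 members tested were lower with TNF (Fos, Fosb, Jun, Egr1, Ier2) and 3 were higher (Fosl2, Junb, Atf3), where 24.2% of the 15888 genes tested were called lower and 23.3% higher. The median log2 fold change was -0.58 over the members and -0.02 over all genes tested. Because the group was proposed for its TNF responses, these counts and this median describe it and are no independent test. Fosl1 was left out by the filter on low counts, with 0 to 11 counts in each of the 12 libraries.

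Fos, the main inducible partner of Jun, was counted at 191, 237 and 209 CPM in TNF organoids, against 520, 543 and 525 CPM in controls. The groups lay far apart, and the log2 fold change was -1.32 (SE 0.07, edgeR adjusted p 2.1e-11), which leaves 0.40 times the control level. Fosb, its close relative, moved further: it had 40.4, 52.8 and 39.5 CPM in TNF organoids, against 213, 206 and 213 CPM in controls, a log2 fold change of -2.25 (SE 0.09, edgeR adjusted p 4.4e-11). Fosl2, a Fos-related gene that many cells express without a stimulus, went the other way from a low level, with 12.4, 8.69 and 9.48 CPM in TNF organoids and 7.97, 8.14 and 7.30 CPM in controls. Its rise of 0.38 on the log2 scale (SE 0.14, edgeR adjusted p 0.026) was small, and its adjusted p reached 0.155 without TNF replicate 1, 0.0953 without control replicate 3 and 0.0556 without control replicate 1.

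The Jun family split. Jun, the partner that binds DNA with any Fos protein or with itself, had 397, 430 and 381 CPM in TNF organoids, against 600, 607 and 601 CPM in controls (log2 fold change -0.58, SE 0.05, edgeR adjusted p 3.9e-08). Junb, often an antagonist of Jun, had 268, 311 and 306 CPM in TNF organoids, against 237, 232 and 222 CPM in controls (0.36, SE 0.06, edgeR adjusted p 9.6e-05). Both pairs of groups were separate. Jund, usually the steadiest Jun gene, did not pass the test: it had 263, 261 and 249 CPM in TNF organoids and 264, 240 and 254 CPM in controls, the ranges overlapped, and the sign of its log2 fold change of 0.03 (SE 0.05) turned without control replicate 2.

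Egr1 and Ier2, which respond to growth factors much as Fos does, fell by similar amounts. Egr1 had 352, 439 and 389 CPM in TNF organoids, against 747, 764 and 749 CPM in controls, a log2 fold change of -0.94 (SE 0.06, edgeR adjusted p 5.4e-10). Ier2 had 133, 167 and 175 CPM in TNF organoids, against 319, 314 and 308 CPM in controls, a log2 fold change of -0.99 (SE 0.08, edgeR adjusted p 4.1e-08). Atf3, a stress-induced gene that represses many inflammatory targets, rose from a low level: it had 15.0, 10.4 and 11.7 CPM in TNF organoids and 6.22, 6.24 and 6.92 CPM in controls (0.94, SE 0.16, edgeR adjusted p 8.3e-05).

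**Figure D1:**
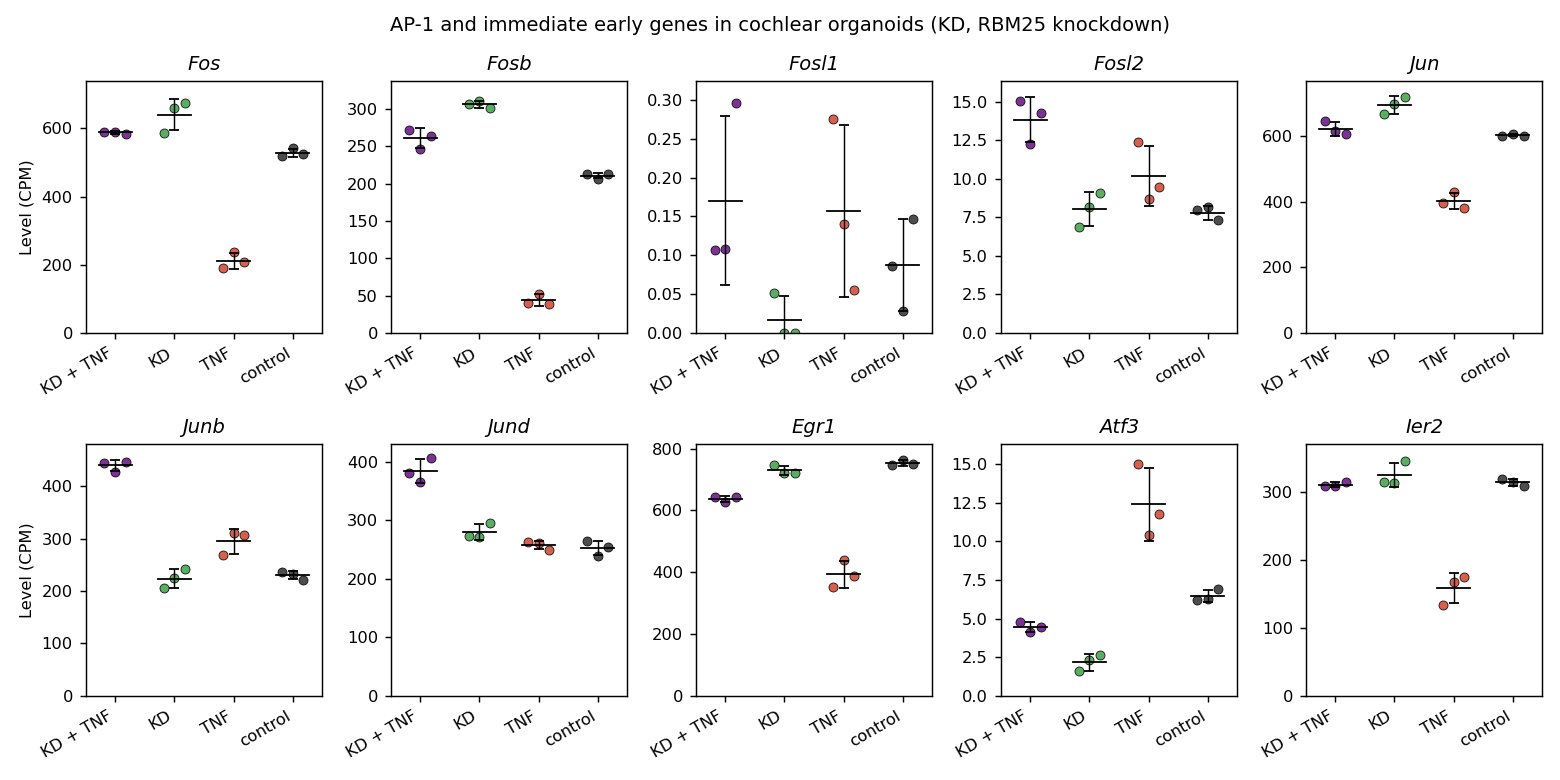
Level of each member in every organoid library, in CPM (linear axes from 0, a scale per gene), for RBM25 knockdown + TNF, RBM25 knockdown (KD), TNF and control organoids; points are libraries, horizontal lines group means and bars 1 SD (n = 3 each). The TNF group stands below the other 3 groups for Fos, Fosb, Jun, Egr1 and Ier2, with Fos at 191 to 237 CPM there.

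With the knockdown alone, against controls, 4 of the 9 members were higher (Fos, Fosb, Jun, Jund) and 1 lower (Atf3), where 24.4% of all genes tested were called higher and 28.2% lower. Atf3 had 1.59, 2.29 and 2.65 CPM in RBM25 knockdown organoids, against 6.22, 6.24 and 6.92 CPM in controls, a log2 fold change of -1.57 (SE 0.18, edgeR adjusted p 5.7e-07). The rises were modest: Fosb had 306, 310 and 301 CPM in knockdown organoids, against 213, 206 and 213 CPM in controls (0.54, SE 0.08, edgeR adjusted p 5.7e-05), and Fos 588, 659 and 674 CPM, against 520, 543 and 525 CPM (0.27, SE 0.07, edgeR adjusted p 0.0021). Jun rose by 0.20 (SE 0.05) and Jund by 0.15 (SE 0.05); the call of Jund was lost without control replicate 2, control replicate 3 or knockdown replicate 3, with adjusted p 0.140, 0.0562 and 0.118. Fosl2, Junb, Egr1 and Ier2 did not pass the test, with log2 fold changes between -0.05 and 0.05.

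With RBM25 knocked down, Fos and Ier2 did not pass the test with TNF, Fosb, Jun and Egr1 fell slightly, and Junb and Jund rose. Between RBM25 knockdown + TNF and RBM25 knockdown organoids, 4 of the 9 members were higher (Fosl2, Junb, Jund, Atf3) and 3 lower (Fosb, Jun, Egr1), against 22.8% and 22% of all genes tested. These counts too describe a group proposed for its TNF responses and are no independent test. Fos had 591, 591 and 584 CPM in RBM25 knockdown + TNF organoids and 588, 659 and 674 CPM in knockdown organoids, so the ranges overlapped and the log2 fold change of -0.12 (SE 0.07) did not pass the test (edgeR adjusted p 0.154). Without knockdown replicate 1, the lowest of its group, Fos passed with an adjusted p of 0.0335 and a log2 fold change of -0.19. Fosb had 272, 246 and 264 CPM with TNF and knockdown and 306, 310 and 301 CPM with knockdown alone (-0.23, SE 0.08, edgeR adjusted p 0.029). Jun fell by 0.16 (SE 0.05, edgeR adjusted p 0.019) and Egr1 fell by 0.19 (SE 0.06, edgeR adjusted p 0.015), while Ier2 stood at 308, 308 and 315 CPM with TNF and knockdown and at 315, 313 and 346 CPM with knockdown alone.

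Of these 3 small falls, that of Egr1 kept its call with each library left out. The call of Fosb was lost without any of knockdown replicates 1, 2 and 3 or RBM25 knockdown + TNF replicates 2 and 3, with adjusted p of 0.0675, 0.0780, 0.0542, 0.103 and 0.0551 in that order. The call of Jun was lost without knockdown replicate 2 or 3, at 0.0523 and 0.0634. Leaving out knockdown replicate 2 or 3 thus left 1 member called lower in place of 3.

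The rises were firmer. Junb had 445, 428 and 447 CPM in RBM25 knockdown + TNF organoids, against 205, 225 and 241 CPM in knockdown organoids, a log2 fold change of 0.98 (SE 0.06, edgeR adjusted p 3.2e-10). Jund had 382, 365 and 406 CPM, against 273, 272 and 296 CPM with knockdown alone (0.46, SE 0.05, edgeR adjusted p 1.0e-06). Fosl2 had 15.0, 12.2 and 14.3 CPM, against 6.87, 8.19 and 9.08 CPM (0.78, SE 0.13), and Atf3 4.76, 4.11 and 4.45 CPM, against 1.59, 2.29 and 2.65 CPM (1.03, SE 0.18). The groups of Junb, Jund, Fosl2 and Atf3 did not overlap. The share of all genes tested whose groups do not overlap is not given here, for this or any other comparison.

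The difference between the TNF effect with knockdown and the TNF effect without it was tested in the same fit as an interaction. Its estimate was positive in all 9 members, though that of Atf3 turned negative by limma and without TNF replicate 2 or knockdown replicate 1, and it passed for 7 of them, Fos, Fosb, Jun, Junb, Jund, Egr1 and Ier2, and for 0 in the negative direction (0 also at an unadjusted p under 0.05, by DESeq2 and by limma), where 7.54% of all genes tested had a positive and 4.81% a negative interaction. The members' median was 0.62, against 0.01 over all genes tested. The group was proposed for its TNF responses with and without the knockdown. These counts and this median therefore describe the group and are no independent test. The interaction was 2.02 on the log2 scale for Fosb (SE 0.12, edgeR adjusted p 1.5e-07), 1.20 for Fos (SE 0.10, edgeR adjusted p 2.4e-07) and 0.92 for Ier2 (SE 0.11, edgeR adjusted p 7.0e-05). It was 0.74 for Egr1 (SE 0.09), 0.62 for Junb (SE 0.09), 0.43 for Jund (SE 0.07) and 0.42 for Jun (SE 0.07). Fosl2 and Atf3 did not pass, at 0.40 (SE 0.19, edgeR adjusted p 0.190) and 0.10 (SE 0.24, edgeR adjusted p 0.850). Among the 7, the TNF effect was less negative with the knockdown for Fos, Fosb, Jun, Egr1 and Ier2, and more positive for Junb and Jund.

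**Figure D2:**
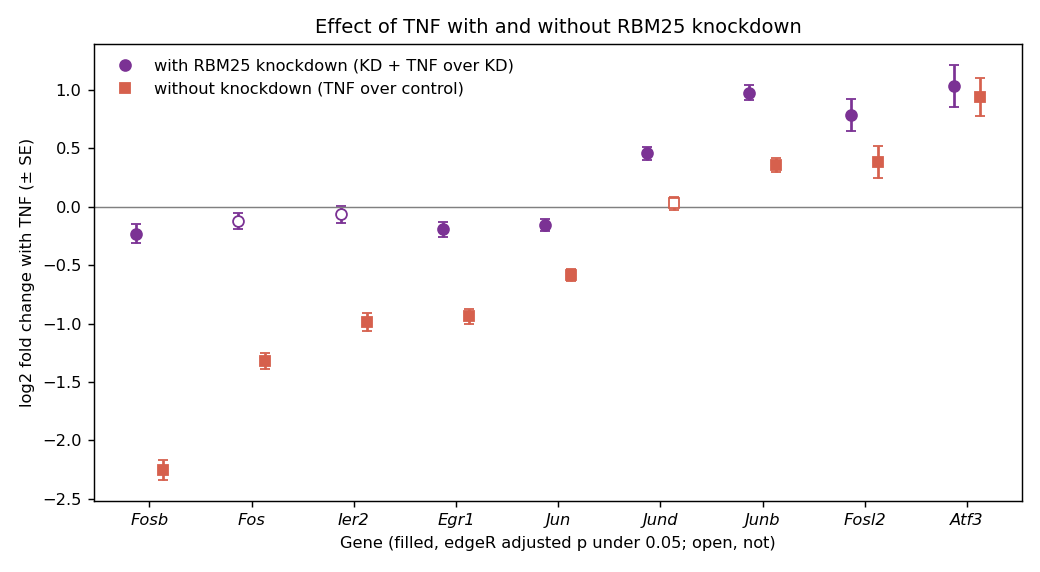
Log2 fold change with TNF for the 9 members tested (vertical axis, bars 1 SE), with RBM25 knockdown (circles, left of each pair) and without it (squares); filled symbols passed the test and open ones did not. Each pair lies on the same side of 0, and the circles of Fosb, Fos, Ier2, Egr1 and Jun lie between -0.23 and -0.07, above squares between -2.25 and -0.58.

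Set side by side under TNF, organoids with the knockdown had more of 8 of the 9 members than organoids without it, where 25.4% of all genes tested were called higher and 26.9% lower. Fos was 2.77 times higher, with 591, 591 and 584 CPM in RBM25 knockdown + TNF organoids and 191, 237 and 209 CPM in TNF organoids (log2 fold change 1.47, SE 0.07, edgeR adjusted p 6.6e-12), and Fosb 5.89 times higher (2.56, SE 0.09, edgeR adjusted p 1.6e-11). Ier2 rose by 0.97 (SE 0.08), Egr1 by 0.70 (SE 0.06), Jun by 0.63 (SE 0.05), and Junb and Jund by 0.58 each (SE 0.06 and 0.05). Fosl2 rose by 0.44 (SE 0.13), with overlapping groups, and its adjusted p reached 0.0576 without TNF replicate 2 and 0.0515 without RBM25 knockdown + TNF replicate 1. Atf3 was the exception, at 0.36 times the TNF level (-1.48, SE 0.16, edgeR adjusted p 4.8e-07): it was lower with the knockdown whether or not TNF was present. These contrasts share libraries with the ones above and add no independent evidence to them.

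Per transcript length, the make-up of AP-1 messages shifted with TNF. On the authors' FPKM scale, Fos led with knockdown + TNF at 285.0 ± 3.3 FPKM and Junb was second at 244.1 ± 5.7 FPKM (SD, n = 3). With knockdown alone Fos led at 308.4 ± 16.8 FPKM, above Egr1 at 241.6 ± 9.1 FPKM. In TNF organoids Junb led, at 158.9 ± 12.1 FPKM, above Egr1, Jun, Ier2 and Fos; the ranges of Egr1 and Jun, of Ier2 and Fos, and of Fos and Jund overlapped. In controls Fos led at 243.5 ± 6.2 FPKM, above Egr1 at 237.9 ± 3.8 with overlapping libraries, followed by Ier2 at 200.0 ± 4.7, Jun at 183.5 ± 2.0, Junb at 121.4 ± 4.8 and Jund at 85.3 ± 4.2 FPKM. Atf3 and Fosl2 were at 1.07 to 6.21 FPKM in every group. Summed over the 7 Fos and Jun family genes, the mean level was 937 FPKM with knockdown + TNF, 836 with knockdown, 486 with TNF and 689 FPKM in controls. Fos made up 30.4%, 36.9%, 20.5% and 35.3% of these sums in the same order, and Junb 26.0%, 14.8%, 32.7% and 17.6%.

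**Figure D3:**
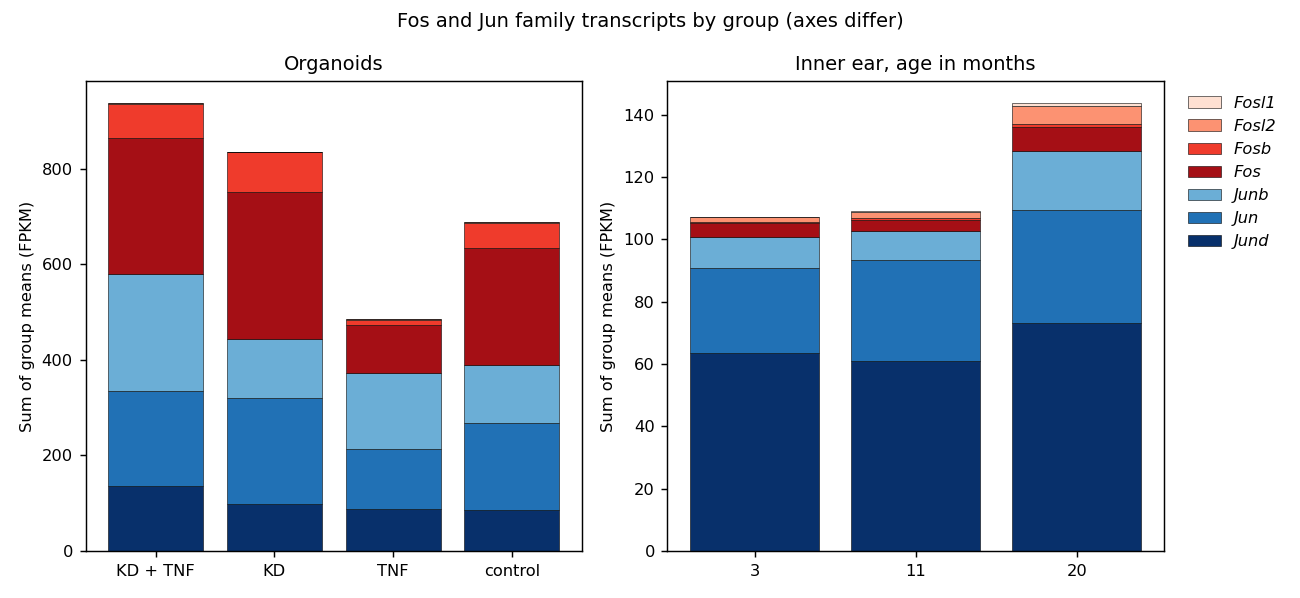
Stacked mean FPKM of the 7 Fos and Jun family genes by group, organoids on the left and inner ear by age on the right (separate linear axes from 0, tables normalised separately). The TNF bar is the lowest of the organoid bars at 486 FPKM and has the smallest Fos and Fosb shares; Jund is the largest part at each age.

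Among 35 other immediate early and early response genes, 32 could be tested in organoids. With TNF on top of the knockdown, 5 were lower (Arc, Gadd45g, Dusp5, Per1, Nr4a2) and 18 higher, against 22% and 22.8% of all genes tested. With TNF and intact RBM25, 12 were lower and 8 higher, against 24.2% and 23.3% of all genes tested. The interaction passed for 13, all positive, with a median of 0.40 over the list; 0 passed in the negative direction by edgeR, although 4 did at an unadjusted p under 0.05, 2 by DESeq2, 1 by limma, and 1 by edgeR without TNF replicate 1, knockdown replicate 1 or RBM25 knockdown + TNF replicate 3. Of all genes tested, 7.54% had a positive and 4.81% a negative interaction. The 4 genes of the list with the smallest p were Zfp36, Btg2, Zfp36l1 and Dusp1. Zfp36, whose protein destroys AU-rich messages, had an interaction of 1.07 (SE 0.09): it was higher with TNF on the knockdown, at 172.3 ± 6.6 against 121.7 ± 6.7 CPM in knockdown organoids, and lower with TNF alone, at 84.5 ± 8.4 against 125.3 ± 2.8 CPM in controls (SD, n = 3 each). Its relative Zfp36l1 had an interaction of 0.81 (SE 0.07), the MAP kinase phosphatase gene Dusp1 one of 0.87 (SE 0.08) and the antiproliferative gene Btg2 one of 0.77 (SE 0.06). Zfp36, Dusp1 and Btg2 passed the test in opposite directions, higher with TNF on the knockdown and lower with TNF alone, which none of the 9 members did.

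Not every early gene followed Fos. Sik1, a CREB-induced kinase, and Myc rose with TNF in both settings: Sik1 by 2.55 (SE 0.09) with knockdown and 2.95 (SE 0.09) without, and Myc by 2.45 (SE 0.13) with and 2.87 (SE 0.12) without. Neither interaction passed the test (edgeR adjusted p 0.0505 for Sik1 and 0.134 for Myc). The neuronal early gene Arc fell with TNF in both, by 1.44 (SE 0.11) with and by 2.43 (SE 0.14) without knockdown. Its estimated fall was thus smaller with the knockdown, as that of Fos was.

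Of 20 textbook AP-1 target genes, 14 were tested. With TNF on the knockdown 10 were higher and 1, the growth factor gene Hbegf, lower, against 22.8% and 22% of all genes tested. With TNF alone 7 were higher and 0 lower (0 also at an unadjusted p under 0.05, by DESeq2 and by limma), against 23.3% and 24.2%. The chemokine gene Ccl2 reached 64.5 ± 8.9 CPM with knockdown + TNF against 1.44 ± 0.59 CPM with knockdown, and 34.9 ± 9.6 CPM with TNF against 0.748 ± 0.452 CPM in controls. The cytokine gene Lif rose by 1.13 (SE 0.17) with knockdown and 1.78 (SE 0.19) without. By edgeR the interaction passed for 0 of the 14 in either direction; at an unadjusted p under 0.05 there were 2 positive and 2 negative, by DESeq2 1 and 0, and by limma 1 and 1. Leaving out 1 library gave up to 2 positive calls, without TNF replicate 1, with 1 each without knockdown replicate 1 or 3 or RBM25 knockdown + TNF replicate 3, and 1 negative call without TNF replicate 2. Over all genes tested, the interaction was positive in 7.54% and negative in 4.81% by edgeR. Many of these target genes are also NF-kB targets.

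Of 12 other bZIP partners of AP-1, 9 were tested. With TNF on the knockdown 4 were higher (the small Maf genes Mafg, Maff and Mafk and the Jun-dimerising repressor gene Jdp2) and 1 lower (Atf7, with 0 lower without knockdown replicate 1). With TNF alone 3 were higher (Mafg, Maff, Jdp2) and 2 lower (Atf7, Maf), with 5 higher without control replicate 2 and 1 lower without control replicate 1, 2 or 3 or TNF replicate 1 or 3. Of all genes tested, 22.8% were called higher and 22% lower with TNF on the knockdown, and 23.3% and 24.2% with TNF alone. Mafg rose by 0.89 (SE 0.06) with knockdown and 0.65 (SE 0.06) without. The interaction passed for 1, Jdp2, at 0.39 (SE 0.09, edgeR adjusted p 0.0069), and for 2 without TNF replicate 1, knockdown replicate 1 or RBM25 knockdown + TNF replicate 2. Of 25 upstream kinases and factors, all tested, 6 had a positive and 4 (Map2k6, Elk4, Creb1, Rps6ka3) a negative interaction, with 3 positive without TNF replicate 1 or 2 or RBM25 knockdown + TNF replicate 1 or 3. For both lists, the shares over all genes tested were 7.54% positive and 4.81% negative. Serum response factor, Srf, which drives Fos and Egr1 in growth factor signalling, had 68.0 ± 3.2 CPM with knockdown + TNF against 75.7 ± 2.7 CPM with knockdown, and 48.0 ± 3.6 CPM with TNF against 67.0 ± 3.1 CPM in controls; its interaction was 0.33 (SE 0.08, edgeR adjusted p 0.015). Its coactivator gene Mrtfa had an interaction of 0.51 (SE 0.09, edgeR adjusted p 0.0015).

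Sums of cell type markers in the organoids moved with TNF too. The summed level of 8 supporting cell markers, all in the table and none at 0, was 3033 to 3276 CPM with knockdown + TNF against 5932 to 6117 CPM with knockdown, and 2639 to 3321 CPM with TNF against 6774 to 7120 CPM in controls. These sums were lower with TNF in both settings. The 5 macrophage markers in the table summed to 9.57 to 11.6 CPM with knockdown + TNF, 1.00 to 1.43 with knockdown, 2.56 to 3.67 with TNF and 1.06 to 1.59 CPM in controls, and Csf1r had 0 counts in all groups but knockdown + TNF. The 8 fibroblast markers, none at 0, summed to 604 to 818, 813 to 963, 1069 to 1289 and 1479 to 1510 CPM in the same order. Again in that order, the 8 hair cell markers summed to 373 to 445, 489 to 705, 287 to 322 and 337 to 351 CPM. Likewise the 7 Schwann cell markers summed to 673 to 729, 759 to 773, 531 to 670 and 782 to 787 CPM. The part of cell make-up in the changes of the members was not tested.

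The genes whose standardised level over the 12 organoid libraries lay nearest to that of Fos, outside the list, were Eps8l1, Plekha7, Spry1, Tmem184a and Clca2, at root mean square differences of 0.219 to 0.251 SD among 13311 genes compared. Within the list Fosb lay at 0.0921 SD, Jun at 0.159, Ier2 at 0.192 and Egr1 at 0.319, while Jund, Junb, Fosl2 and Atf3 lay at 1.03 to 1.85 SD. The 12 libraries share their 4 groups, so this describes the group pattern and is no separate test.

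In the inner ear all 10 members passed the filter, and their order of level was another one. Jund led at every age, at 63.6 ± 7.5, 61.03 ± 5.72 and 73.1 ± 2.7 FPKM at 3, 11 and 20 months (SD, n = 4), and Jun was second at 27.3 ± 1.6, 32.3 ± 2.1 and 36.4 ± 5.2 FPKM; neither overlapped the next gene down. Ier2, Junb, Egr1, Fos and Atf3 followed, each overlapping its neighbours among them, and Fosb and Fosl1 were lowest, at or under 1.15 FPKM. Fos averaged 4.53, 3.79 and 7.55 FPKM at the 3 ages, a small part of its level in organoids; the 2 tables were normalised separately and differ in tissue and age, so no test was made.

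At 20 months against 3 months 5 of the 10 members were higher (Fosl1, Fosl2, Jun, Junb, Atf3) and 0 lower (0 also at an unadjusted p under 0.05, by DESeq2 and by limma), where 12% of the 15525 genes tested were called higher and 10.7% lower. The median log2 fold change was 1.00 over the members and 0.01 over all genes tested. Fosl2 had the smallest p of the members, with 7.84, 12.1, 11.0 and 12.4 CPM at 3 months, 13.1, 15.6, 16.8 and 13.8 CPM at 11 months, and 38.2, 26.2, 47.0 and 45.4 CPM at 20 months. The 20-month mice stood above all others, and the log2 fold change against 3 months was 1.86 (SE 0.19, edgeR adjusted p 1.1e-04).

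Fosl1, a Fos-related gene tied to proliferation and invasion in other tissues, had 1.69, 0.968, 2.48 and 1.15 CPM at 20 months, against 0.236, 0.248, 0.333 and 0.0860 CPM at 3 months (2.78, SE 0.51, edgeR adjusted p 0.0028). These levels are low, and the groups did not overlap. Atf3 had 12.5, 12.4, 13.6 and 15.8 CPM at 20 months, against 4.27, 6.17, 9.13 and 6.08 CPM at 3 months, also without overlap (1.08, SE 0.21, edgeR adjusted p 0.0040). Jun had 103, 108, 108 and 137 CPM at 20 months, against 91.8, 80.9, 87.3 and 92.2 CPM at 3 months, a smaller step with no overlap (0.37, SE 0.09, edgeR adjusted p 0.010).

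Junb was less secure. It had 27.8, 26.5, 36.9 and 45.3 CPM at 20 months and 10.6, 14.6, 18.5 and 28.5 CPM at 3 months, so the groups overlapped through 3-month replicate 4 (0.92, SE 0.28, edgeR adjusted p 0.035). Leaving out 3-month replicate 1, 2 or 3 or 20-month replicate 1, 3 or 4 moved its adjusted p to 0.0769, 0.0885, 0.0665, 0.0504, 0.0638 and 0.0917 in that order, and a fit of only these 8 libraries gave 0.0777. Jund did not pass the test (0.16, SE 0.08, edgeR adjusted p 0.177) although its lowest 20-month mouse, at 199.5 CPM, stood just above its highest 3-month mouse, at 199.0 CPM.

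Several genes of the organoid response varied widely between mice of 1 age, and Fos, Fosb, Egr1 and Ier2 did not pass the test with age. Fos had 9.19, 10.6, 13.1 and 29.7 CPM at 20 months and 4.01, 3.85, 11.8 and 18.8 CPM at 3 months, with a coefficient of variation of 60.7% and 74.5% (log2 fold change 0.70, SE 0.59, edgeR adjusted p 0.421). Egr1 had 30.9, 23.5, 44.9 and 82.2 CPM at 20 months and 13.4, 11.4, 20.0 and 37.7 CPM at 3 months (1.14, SE 0.49, edgeR adjusted p 0.122), and it passed, at 0.0451 with a log2 fold change of 1.60, only without 3-month replicate 4 among the libraries left out. Fosb (1.19, SE 0.96) and Ier2 (0.07, SE 0.18) did not pass either.

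**Figure D4:**
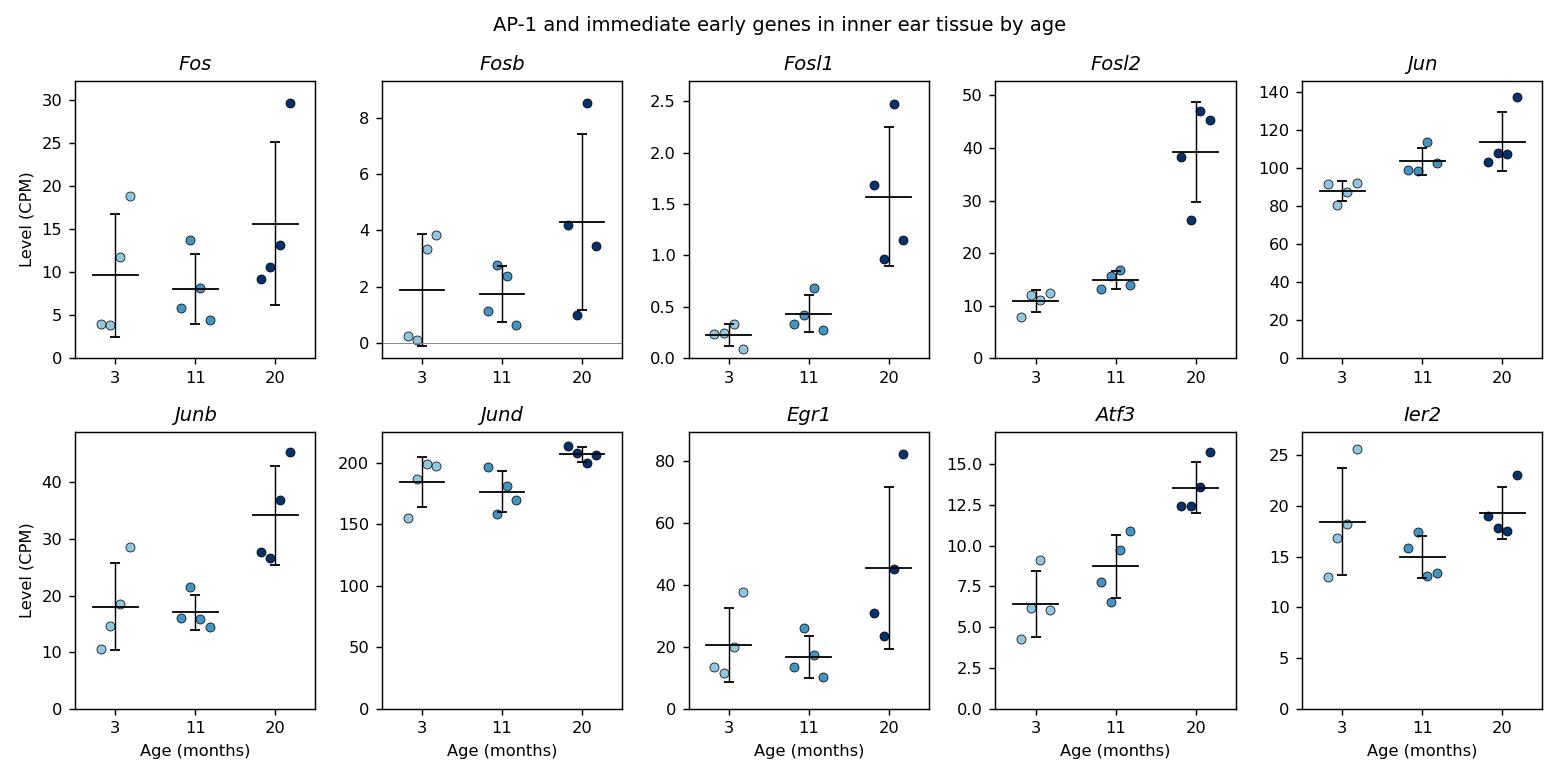
Level of each member in every inner ear library, in CPM (linear axes, a scale per gene), at 3, 11 and 20 months; points are mice, horizontal lines group means and bars 1 SD (n = 4 each). Fosl2, Fosl1, Atf3 and Jun at 20 months lie above all 3-month points, while Fos, Fosb, Egr1 and Ier2 overlap.

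At each age 1 mouse was the highest for many of the members. Replicate 4 at 3 months was the highest of its age for 7 of the 10 members, and replicate 4 at 20 months for 6 of 10. At 11 months replicate 2 led in 5, and replicate 3 led in 3 at every age. How often these libraries were the highest over all genes was not counted. The 3-month replicates 1 and 2 had Fosb at 0.236 and 0.0931 CPM, while replicates 3 and 4 had 3.36 and 3.84 CPM. The labels give no dissection time, order or batch, so a part of handling in this spread was not tested. Over the 12 inner ear libraries Gm11964, Zfp36, Fam214b, Nr1d1 and Sgms2 lay nearest to Fos outside the list, at 0.418 to 0.578 SD among 14217 genes compared; Zfp36 is the immediate early gene named above and Nr1d1 a clock gene. Within the list Egr1 lay at 0.362 SD and Junb at 0.475, and Atf3 and Jund at 0.985 and 0.995.

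**Figure D5:**
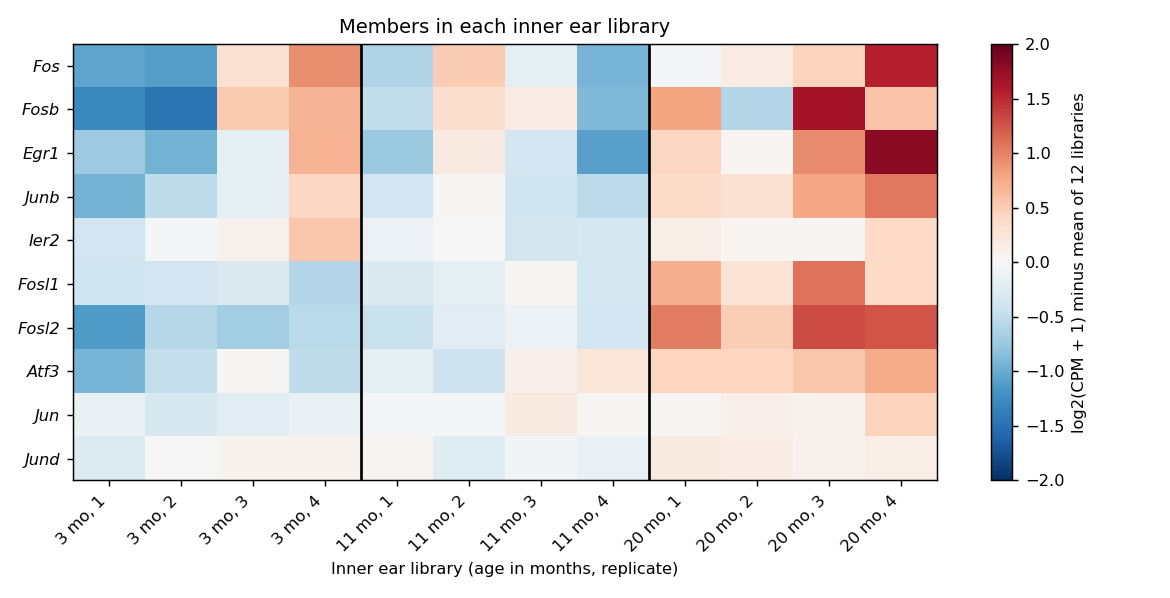
Heat map of log2(CPM + 1) minus the mean of the 12 inner ear libraries, members in rows and libraries in columns by age and replicate (red above the mean, blue below). Fos, Fosb and Egr1 differ between mice of 1 age. Fosl2 and every other member but Fos and Fosb are above their means in all 4 20-month libraries.

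At 11 months against 3 months 0 members were called in either direction, where 0.979% of all genes tested were called higher and 0.58% lower; at an unadjusted p under 0.05 there were 2 higher and 0 lower, and DESeq2 and limma called 0. At 20 months against 11 months 3 were higher (Fosl1, Fosl2, Junb) and 0 lower, against 7.87% and 7.9% of all genes tested. Fosl2 rose by 1.40 (SE 0.18, edgeR adjusted p 0.0038), Fosl1 by 1.86 (SE 0.48, edgeR adjusted p 0.024) and Junb by 1.01 (SE 0.28, edgeR adjusted p 0.034). Of these, Fosl2 kept its call with each library left out. The adjusted p of Fosl1 rose to 0.0564, 0.0614 and 0.0604 without 11-month replicate 1, 2 or 4 and to 0.0631 without 20-month replicate 1. That of Junb rose to 0.0708, 0.0955 and 0.0807 without 11-month replicate 1, 3 or 4 and to 0.0589 and 0.0857 without 20-month replicate 1 or 4. Without 11-month replicate 1 or 4 or 20-month replicate 1, Fosl2 was the 1 member called.

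Other early genes were higher at 20 months than at 3 as well: of 33 tested, 20 were higher and 1, Dusp5, lower. For this and each list below, the shares over all genes tested were 12% higher and 10.7% lower. The count of higher genes was 13 without 3-month replicate 1, and Dusp5 was not called without 3-month replicate 1, 3 or 4 or 20-month replicate 1, 2 or 4. Nr4a3, an orphan nuclear receptor gene, had 19.0 ± 8.3 CPM at 20 months against 1.30 ± 0.47 CPM at 3 months (3.86, SE 0.39), and Klf6 91.0 ± 5.3 against 58.8 ± 2.8 CPM (0.63, SE 0.07). Of 16 textbook targets 7 were higher and 1, Spp1, lower, with 4 higher when 20-month replicate 1 or 4 was left out and 0 lower without 3-month replicate 2 or 20-month replicate 1, 3 or 4. Ptgs2, the inducible prostaglandin synthase gene, had 12.2 ± 7.0 CPM at 20 months against 1.24 ± 0.20 CPM at 3 months. Of 12 bZIP partners 3 were higher (Maff, Mafk, Atf7) and 2 lower, and Maff rose by 1.80 (SE 0.19). Of 25 upstream genes 6 were higher and 4 lower (Mapk10, Map2k4, Map2k6, Rps6ka3), with 3 higher without 3-month replicate 1 or 3 or 20-month replicate 1 or 4.

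Heat shock and tissue markers moved with age beside these genes. Of 11 heat shock genes, 8 were higher at 20 months than at 3 and 0 lower (0 also at an unadjusted p under 0.05, by DESeq2 and by limma), against 12% and 10.7% of all genes tested. Hspa1b had 108.4 ± 44.9 CPM at 20 months against 9.60 ± 1.42 CPM at 3 months. The 10 macrophage markers, all in the table and none at 0, summed to 273 to 506 CPM at 20 months against 146 to 189 CPM at 3 months, and the 8 neuron markers to 7510 to 10865 CPM against 11287 to 14470 CPM. Airway mucosa markers ranged from 35.3 to 1043 CPM at 20 months and from 65.5 to 463 CPM at 3 months. The part of each in the rise of Fosl2, Fosl1, Atf3, Jun and Junb was not tested.

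The library kit does not mark strand, so reads where genes overlap on opposite strands cannot be assigned with certainty. By the GENCODE annotation for GRCm38.p6, exons of Fosl1 overlap those of Ccdc85b and exons of Jun those of Junos. Exons of Junb overlap those of Prdx2, and exons of Jund those of Gm11175. The other 6 members overlap none. Junos fell by 0.53 (SE 0.12) with TNF on the knockdown and by 0.37 (SE 0.11) with TNF alone, with group means between 6.78 and 14.5 CPM in the organoids, far below those of Jun. Prdx2 rose by 0.39 (SE 0.05) and 0.41 (SE 0.05) in these comparisons, with an interaction of -0.02 (SE 0.07), against 0.62 for Junb. Ccdc85b was lower at 20 months than at 3, at 51.0 against 66.6 CPM, where Fosl1 was higher.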

How the data were processed

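Bulk RNA-seq of 12 inner ear and 12 organoid libraries was used (a TruSeq RNA kit, per the labels' protocols, which does not mark strand). Per the submitters' processing notes, Trimmomatic, HISAT2, HTSeq, DESeq2 and mm10 were used, with no versions or settings stated. The authors deposited raw counts per gene and FPKM values (counts over the library total and 1 length per gene); no library was pooled. Counts were analysed with edgeR 4.0.16 in R 4.3.3 (TMM, filterByExpr, robust quasi-likelihood fit, all 12 libraries of an experiment together, two-sided), which tested 15525 inner ear and 15888 organoid genes; p-values were adjusted over all of them. The steps were tested on simulated data. Alternatives were DESeq2 1.42.0 size factors, no count filter, the DESeq2 Wald test, limma 3.58.1 on log2(FPKM + 1), only the libraries compared, a replicate block and each library left out in turn. Likeness to Fos was measured on standardised log2(CPM + 1) over genes averaging at least 1 CPM. Named genes were all members, for each other list up to 4 genes with the smallest p in a comparison described or the genes of a count of 5 or fewer, and the 5 genes nearest to Fos. Coordinates and promoter sequences are RefSeq's for GRCm38.p6, matched by symbol, and exon overlaps are from the GENCODE annotation. The patch level of the authors' mm10 was not checked. The members, gene lists and tests were chosen with earlier results of these data known.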

Additional observations from a re-analysis of the deposited data

Results flagged for a closer look

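Jun stood out in 1 of the 30 inner ear sets of 4 mice examined for a value far from the rest: 20-month replicate 4 had 137 CPM, where the other 3 mice of that age had 103 to 108 CPM. Chance alone flags about 1 in 20 such sets. With each library left out, Jun stayed called higher at 20 months than at 3, with adjusted p up to 0.0322 and a log2 fold change of 0.27 at the lowest.

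Including Jun, 7 members were singled out because the effect of TNF differed between organoids with and without the knockdown by edgeR's test of the interaction. The interaction was 2.02 on the log2 scale for Fosb, 1.20 for Fos, 0.92 for Ier2, 0.74 for Egr1, 0.62 for Junb, 0.43 for Jund and 0.42 for Jun. With TNF, Fosb, Fos, Ier2, Egr1 and Jun fell less with the knockdown than without it, and Junb and Jund rose more.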

How the results depend on the processing

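Of 1005 values of single members under an alternative, 942 kept their direction and side of the threshold, 32 lost a call, 7 gained one, 24 without a call changed sign and 0 called values reversed. The 7 interaction calls held under every alternative run. At 20 against 11 months 3 members were higher, 5 by the DESeq2 Wald test and 1 to 3 with 1 library left out; for RBM25 knockdown + TNF against knockdown, 3 were lower and 1 to 3 with 1 library left out. With the replicate block, 4 members were higher at 20 than at 11 months (Atf3 gained a call), and the other counts of members were as in the fit without it. No shared source of same-numbered libraries is stated, so numbers were not taken as pairs. Same-numbered libraries of different groups correlated at -0.345 to 0.371 in the inner ear and -0.116 to 0.292 in the organoids. The correlation was above 0.1 in 4 of 12 such pairs in the inner ear and 2 of 18 in the organoids. Over all genes, the counts of 152 higher and 90 lower at 11 against 3 months were 579 and 440 by DESeq2 and 29 to 88 and 9 to 49 with 1 library left out. At 20 against 3 months 1868 higher and 1657 lower became 1221 and 990 without 20-month replicate 1, and the lower count also moved by over 1.5 times without 3-month replicate 1. At 20 against 11 months 1222 higher and 1226 lower became 334 to 1818 and 453 to 1814, and for the interaction 1198 positive and 764 negative became 637 to 1179 and 432 to 1158. The cause was not tested. DESeq2 size factors moved the median of all genes by less than 0.1 on the log2 scale.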
